A study of Mus musculus with 6 samples.

Results

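Enzymes that use farnesyl and geranylgeranyl diphosphate for products other than sterols were followed in cultured adult hippocampal precursor cells given human LDL. The group comprised 10 genes, taken by name, with earlier results of these arrays known. They were Ggps1, the protein prenyltransferase subunits Fnta, Fntb, Pggt1b, Rabggta and Rabggtb, the dolichol enzyme Dhdds, and the ubiquinone enzymes Pdss1, Pdss2 and Coq2. The scanner tables used here carry a transcript accession for each probe, so probes were assigned to genes through that accession. All 10 genes were found, out of 36717 genes or unnamed transcripts on the array, through 18 probes. All 10 passed the filter on dim probes, as did 24213 features in all.

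The cells were isolated from the dentate gyri of male C57BL6/JRj mice 8 weeks old and grown as an attached layer in medium with 2% B27 and 20 ng/ml each of EGF and bFGF. After 2 days in 6-well plates the cultures received LDL or, as control, saline, and RNA was taken 48 h later. The treatment protocol gives the LDL dose as 100 ug/ml, while the sample descriptions write another unit of volume, so the dose unit is uncertain. Each treatment has 3 arrays. The labels describe 3 independent experiments on different passages and do not say that a shared replicate number marks 1 experiment. The sources used here do not give the number of animals, so errors and p-values describe spread between cultures. The precursor markers Nes, Sox2, Vim, Fabp7, Egfr, Pax6 and Hes5 were each well above background on all 6 arrays. Of 6 neuronal markers 5 were, while Dcx was on none, and of 6 microglia markers 4 were, while P2ry12 was on none. The log2 of the mean level over the astrocyte markers was between -0.92 and -0.72 with saline and between -1.10 and -0.97 with LDL. Over the vascular markers it was between 1.494 and 1.559 with saline and between 1.416 and 1.488 with LDL. LDL arrays were thus all lower in both, by a narrow gap for the vascular markers. Of all features, taken singly, 8.79% also had all LDL arrays lower. The mean was taken on the linear scale, so the brightest markers weigh most in it. Of 5 astrocyte markers 4 were well above background on all 6 arrays and Gjb6 on none; of 5 vascular markers 2 were, and Cdh5 and Pdgfrb were on none. Gfap, a filament gene listed with the astrocyte markers, was the only marker of any list that passed the test. It rose (log2 fold change 1.35, limma adjusted p = 0.0215), and which cells carried it was not tested. The groups overlapped for neuronal markers (2.07 to 2.47 with saline, 2.04 to 2.22 with LDL), microglia markers (1.72 to 2.10 and 1.70 to 1.99) and oligodendrocyte markers (0.62 to 1.60 and 0.81 to 1.23), the last with 5 of 5 well above background. The part of other cell types in the results was not tested.

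The mevalonate pathway turns acetyl-CoA into isoprenoid units and ends its common trunk at farnesyl diphosphate. Squalene synthase, encoded by Fdft1, commits that intermediate to sterols. Other enzymes lengthen it or transfer it: geranylgeranyl diphosphate and farnesyl diphosphate anchor small GTPases and lamins to membranes, dolichol carries sugars for N-glycosylation, and the ubiquinone tail holds the electron carrier in the mitochondrial membrane. SREBP2, a transcription factor held back when membrane cholesterol is ample, is the textbook activator of trunk and sterol genes. The values below set the non-sterol branches beside the trunk and the sterol branch after LDL.

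None of the 10 non-sterol enzymes passed the test of LDL against saline, while 7 of 8 trunk genes did. In limma, 0 of 10 had an adjusted p below 0.05 (Benjamini-Hochberg over all features) and 1 had an unadjusted p below 0.05, against 0.136% and 7.49% of all features. Of all features 0.116% were lower and 0.0207% higher after LDL at that threshold. The log2 fold changes of the 10 genes lay between -0.02 and 0.22, with a median of 0.06, beside a median of -0.03 over all features. Over the 12 genes of the sterol branch the median was -1.38, and 6 fell while 0 rose; over the 8 trunk genes it was -1.13, and 7 fell while 0 rose. With the replicate number as a block, 3 of the 12 and 3 of the 8 passed, and still 0 of the 10. Of the non-sterol enzymes 7 had a positive and 3 a negative value, where 56.3% of all features were negative. The lists and genes were chosen with earlier results of these arrays known.

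**Figure D1:**
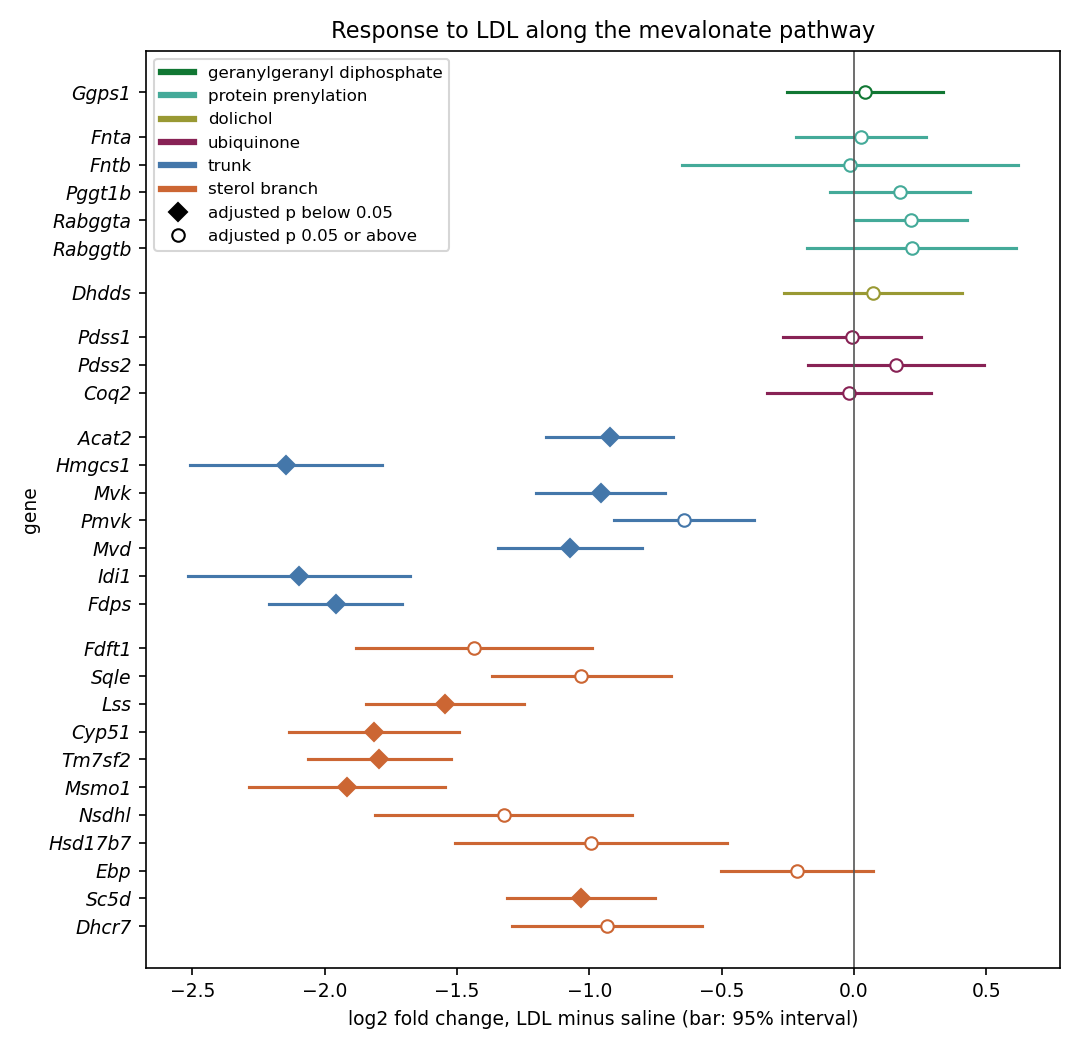
Log2 fold change (LDL minus saline, horizontal axis) of each gene with its 95% interval, for the genes shown, ordered by branch; filled diamonds mark an adjusted p below 0.05 in limma. The 10 non-sterol enzymes lie between -0.02 and 0.22, while the trunk genes shown lie between -2.15 and -0.64 and the sterol branch genes shown between -1.92 and -0.22.

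The lowest 95% limit among the 10 genes was -0.65, for Fntb, and that of the other 9 was -0.33, for Coq2, which corresponds to a 1.26-fold fall. That limit was -0.60, for Rabggtb, when the probes of a gene were averaged, and -0.52, for Coq2, in slide row 1 alone. The upper limit of Fdps, the farnesyl diphosphate synthase that ends the trunk, was -1.71, so none of the 10 intervals reached it. Fdps was 1 of the larger falls. The Fntb interval overlapped that of Pmvk in the trunk (-0.64, 95% interval -0.91 to -0.38). All 10 overlapped that of Ebp in the sterol branch (-0.22, 95% interval -0.50 to 0.07). In the main fit the intervals of the other 9 genes lay above that of Pmvk, the weakest trunk value. The intervals thus do not separate Fntb from the weakest trunk gene, nor any of the 10 genes from Ebp. With 1 array left out the Fntb limit reached -0.90 (LDL replicate 1 left out), and in slide row 1, with 2 arrays of each group, it was -1.08 while the limit for Fdps was -1.48. Slide row 1 held replicates 1 and 2 of both groups, and the median of the 10 genes was 0.03 there and 0.11 in row 2, beside -1.26 and -1.61 for the sterol branch.

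Promoter sequences are shown to set the non-sterol genes beside genes that fell. They come from RefSeq (GRCm38.p6) and span 250 bases before to 50 bases after a transcription start. Of the 10 non-sterol genes 8 had an entry, with 11 promoters in all. Capitals mark matches on either strand to the sterol regulatory element in its loose form TCACNCCAC, which also covers the strict sterol regulatory element 1, to the E-box CACGTG and to the NF-Y box CCAAT, which reads ATTGG on the other strand. Ggps1 and Dhdds are shown because they held NF-Y boxes, and Coq2 because it had no match. Hmgcs1 and Cyp51, which fell, stand for the trunk and the sterol branch.
Ggps1, chr13:14063439-14063738, minus strand: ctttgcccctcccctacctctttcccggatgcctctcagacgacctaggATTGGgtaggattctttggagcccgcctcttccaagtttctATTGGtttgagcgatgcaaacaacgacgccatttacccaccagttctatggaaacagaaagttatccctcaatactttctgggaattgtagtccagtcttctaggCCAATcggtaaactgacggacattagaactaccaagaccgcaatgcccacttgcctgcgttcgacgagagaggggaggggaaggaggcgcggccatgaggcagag
Dhdds, chr4:134000833-134001132, minus strand: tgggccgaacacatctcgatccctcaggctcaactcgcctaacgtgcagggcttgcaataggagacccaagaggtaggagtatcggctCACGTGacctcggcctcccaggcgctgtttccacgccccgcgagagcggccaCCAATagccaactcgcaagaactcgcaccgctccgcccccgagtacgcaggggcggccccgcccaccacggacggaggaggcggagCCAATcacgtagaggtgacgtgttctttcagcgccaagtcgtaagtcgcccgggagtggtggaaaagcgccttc
Coq2, chr5:100674207-100674506, minus strand: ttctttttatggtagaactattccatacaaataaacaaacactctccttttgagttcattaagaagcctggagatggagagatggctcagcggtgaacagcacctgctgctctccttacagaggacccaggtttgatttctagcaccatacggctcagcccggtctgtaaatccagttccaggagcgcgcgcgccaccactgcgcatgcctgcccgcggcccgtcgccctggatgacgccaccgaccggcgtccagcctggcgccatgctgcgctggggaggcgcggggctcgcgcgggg
Hmgcs1, chr13:119690101-119690400, plus strand: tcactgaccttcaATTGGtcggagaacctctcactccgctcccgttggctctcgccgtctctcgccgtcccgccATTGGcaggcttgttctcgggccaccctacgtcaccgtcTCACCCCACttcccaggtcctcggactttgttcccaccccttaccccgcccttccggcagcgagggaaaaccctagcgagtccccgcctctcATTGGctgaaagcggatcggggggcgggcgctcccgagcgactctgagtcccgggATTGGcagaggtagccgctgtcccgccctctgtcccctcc
Cyp51, chr5:4104648-4104947, minus strand: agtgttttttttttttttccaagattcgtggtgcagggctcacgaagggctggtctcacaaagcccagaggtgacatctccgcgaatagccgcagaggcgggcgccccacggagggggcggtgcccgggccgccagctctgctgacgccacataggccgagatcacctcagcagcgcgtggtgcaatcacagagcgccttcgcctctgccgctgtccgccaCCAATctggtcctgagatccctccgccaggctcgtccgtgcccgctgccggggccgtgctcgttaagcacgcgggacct
The loose sterol element was in 0 of the 11 non-sterol promoters, in 1 of 7 trunk promoters (Hmgcs1, first base at -137), in 0 of 11 sterol branch promoters and in 1.24% of all 32851 promoters. It was also in 1 of 30 promoters of further non-sterol genes, none of which passed the test, and in 0 of 13 prenylated protein promoters. The strict form was in none of these gene sets and in 0.0913% of all promoters. An NF-Y box was in 3 of 11 non-sterol promoters, those of Ggps1, Dhdds and Rabggtb, which is 27.3% beside 37.4% of all promoters. The same box was in 81.8% of sterol branch promoters and 71.4% of trunk promoters, and in 33.3% of further non-sterol and 38.5% of prenylated protein promoters. The E-box was in 1 non-sterol promoter, that of Dhdds at -162, and in 3 of 11 sterol branch promoters, against 7.15% of all. It was in 0 of 7 trunk promoters. Among the further non-sterol and prenylated protein genes treated below, it was in 6 of 30 and 2 of 13 promoters. These matches describe letters in a short window, and Fdft1 and Fdps had no entry.

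Ggps1 makes geranylgeranyl diphosphate from farnesyl diphosphate and so stands at the same branch point as Fdft1. Its signal, in log2 units above the 75th percentile of the same array, was 1.69, 1.46 and 1.34 in saline replicates 1 to 3 and 1.66, 1.48 and 1.47 in LDL replicates 1 to 3. The groups overlapped, and replicate 1 was the highest in each. LDL minus saline came to 0.04 (SE 0.12, adjusted p = 0.967), and its 95% interval ran from -0.25 to 0.34. In its neighbour Fdft1 the signal was 1.42, 2.01 and 1.82 with saline and 0.59, 0.18 and 0.17 with LDL, so every LDL array was below every saline array. That difference was -1.44 (95% interval -1.88 to -0.99), yet it did not pass over all features (adjusted p = 0.0772, in a range from 0.0184 to 0.999 over the alternatives). In Fdps, upstream of both, the signal was 4.74, 4.91 and 4.84 with saline and 2.998, 2.81 and 2.80 with LDL. It fell by 1.96 on the log2 scale, a 3.89-fold difference (SE 0.11, adjusted p = 0.00461), but with saline replicate 3 left out it did not pass (adjusted p = 0.0784), nor did it when LDL replicate 2 or 3 was left out (adjusted p = 0.0662 and 0.0624), without the background filter (adjusted p = 0.0659) or in slide row 1 (adjusted p = 0.449).

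**Figure D2:**
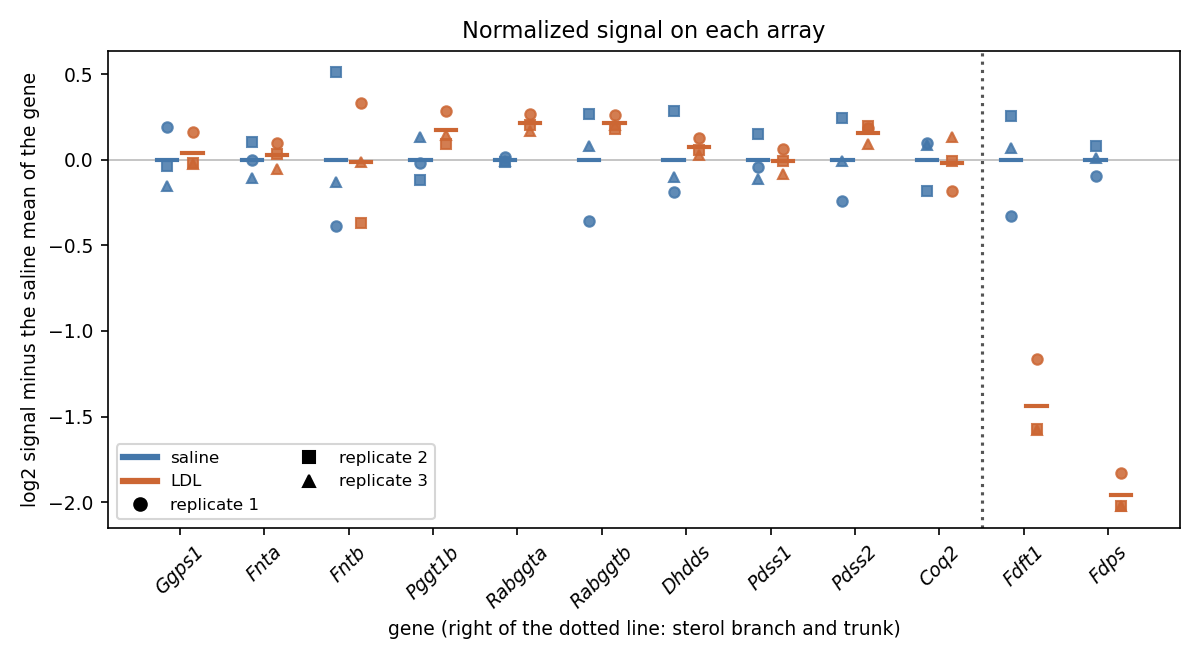
Normalized log2 signal of each array minus the saline mean of the gene (vertical axis) for the 10 non-sterol enzymes and, right of the dotted line, Fdft1 and Fdps; colours give the treatment, shapes the replicate number and bars the group means. LDL and saline points interleave in 9 of the 10 non-sterol genes, the exception being Rabggta, while in Fdft1 and Fdps all LDL points lie below the saline points.

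The other probes of Ggps1 were slightly higher after LDL. On the dimmest of its 3 probes the signal was -0.80, -0.94 and -0.96 with saline and -0.70, -0.66 and -0.55 with LDL. All LDL arrays were above all saline arrays there, with a log2 fold change of 0.26 that did not pass over single probes (adjusted p = 0.693). The middle probe also had groups that did not overlap, with a log2 fold change of 0.08 (adjusted p = 0.91). Groups with LDL higher and no overlap made up 5.7% of single probes. The 3 probes thus gave small positive values of different size.

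Farnesyltransferase and geranylgeranyl transferase I share the alpha subunit Fnta and differ in the beta subunit, Fntb for farnesyl and Pggt1b for geranylgeranyl transfer. Fnta had 3.65, 3.76 and 3.55 with saline and 3.75, 3.69 and 3.60 with LDL. Both groups overlapped throughout, and LDL minus saline came to 0.03 (SE 0.10) with a 95% interval from -0.22 to 0.27. Its dimmer probe had 0.04. Fntb had -2.55, -1.66 and -2.29 with saline and -1.83, -2.53 and -2.18 with LDL. Saline replicate 2 was the highest and LDL replicate 2 nearly the lowest, so this gene spread most between replicates, and its log2 fold change of -0.02 had the widest interval, -0.65 to 0.62. Leaving out saline replicate 2 made it 0.24, and leaving out saline replicate 1 made it -0.21. The dimmer Fntb probe, well above background on 2 of 3 LDL arrays, had -0.34 (adjusted p = 0.772) with all LDL arrays below all saline arrays, which 8.42% of single probes also showed.

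Pggt1b had -1.13, -1.23 and -0.98 with saline and -0.83, -1.02 and -0.97 with LDL. LDL replicate 2 fell within the saline range, and LDL minus saline came to 0.17 (SE 0.11, adjusted p = 0.796) with a 95% interval from -0.09 to 0.44. In slide row 1 its difference was 0.26 and in row 2 it was 0.01.

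Rabggta and Rabggtb form geranylgeranyl transferase II, which attaches the geranylgeranyl groups of Rab GTPases, the switches of vesicle traffic. Rabggta had -1.12, -1.15 and -1.14 with saline and -0.87, -0.93 and -0.96 with LDL. Every LDL array was above every saline array, the only such case among the 10 genes, where 5.84% of all features showed it and 14.6% did not overlap in either direction. The difference was 0.21 on the log2 scale (SE 0.09) with a 95% interval from 0.00 to 0.43, an unadjusted p of 0.0471 and an adjusted p of 0.663 in limma, so it did not pass. Leaving out 1 array kept the value between 0.19 and 0.24, and an exact permutation test gave p = 0.1, the smallest that 3 arrays against 3 allow. Rabggtb had 1.12, 1.74 and 1.56 with saline and 1.74, 1.65 and 1.68 with LDL. Saline replicate 1 was the only low array. The log2 fold change was 0.22 (95% interval -0.18 to 0.61, adjusted p = 0.831), and leaving out saline replicate 1 made it 0.04, leaving out saline replicate 2 0.35. The dimmer Rabggtb probe varied from -2.77 to -0.67 between arrays of the same group and had a log2 fold change of 0.00 with an SE of 0.64, so it carries little information.

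Dhdds is the catalytic subunit of the cis-prenyltransferase that builds the dolichol chain. It had 0.01, 0.48 and 0.09 with saline and 0.32, 0.25 and 0.22 with LDL. All LDL arrays lay inside the saline range, and LDL minus saline came to 0.07 (SE 0.14) with a 95% interval from -0.26 to 0.41. Its other probe had 0.10.

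Pdss1 and Pdss2 are the subunits of the enzyme that makes the ubiquinone side chain, and Coq2 joins that chain to the ring. Pdss1, measured by 10 spots on each array, had -0.49, -0.29 and -0.56 with saline and -0.38, -0.45 and -0.53 with LDL. All LDL values lay within the saline range, with a difference of -0.01 (SE 0.11) and a 95% interval from -0.27 to 0.25. Pdss2 had -1.55, -1.06 and -1.31 with saline and -1.12, -1.11 and -1.22 with LDL. Again the LDL arrays fell inside the saline range, and the log2 fold change was 0.16 (SE 0.14, adjusted p = 0.852), with 0.18 on the dimmer probe. Coq2 had 3.83, 3.55 and 3.82 with saline and 3.55, 3.72 and 3.86 with LDL. Their lowest arrays nearly coincided, and LDL minus saline came to -0.02 (SE 0.13) with a 95% interval from -0.33 to 0.29, and with 0.03 on its dimmer probe.

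**Figure D3:**
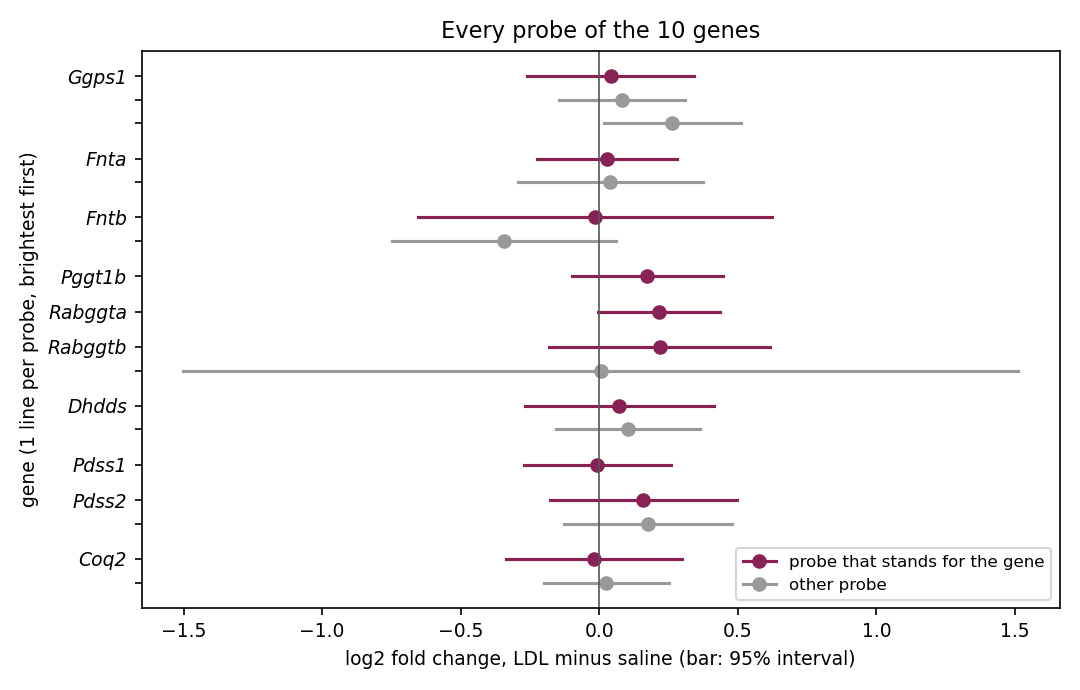
Log2 fold change (LDL minus saline, horizontal axis) with its 95% interval for each of the 18 probes of the 10 genes, brightest probe first; the coloured probe stands for the gene. Values run from -0.34 to 0.26, and 17 of the intervals are narrower than that of the dimmer Rabggtb probe.

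Of the 18 probes 14 had a positive and 4 a negative value, and 0 passed in limma over single probes (smallest adjusted p = 0.693), against 0.0849% of all single probes. Probes of the same gene are not independent. The number of genes with a positive value, 7 of 10 in the main fit, ran from 6 to 10 over the alternatives. In 8 of the 10 genes the saline arrays spread more than the LDL arrays. This also held over all features, with a median SD of 0.188 with saline and 0.105 with LDL.

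Whether each response differed from that of Fdft1, which is 1 gene and does not stand for the whole sterol branch, was tested on the difference between a gene and Fdft1 on the same array, which no scaling between arrays can alter. For Ggps1 this difference was 0.26, -0.55 and -0.48 in saline replicates 1 to 3 and 1.07, 1.30 and 1.30 in LDL replicates 1 to 3. The LDL values were all higher. The response of Ggps1 was thereby 1.48 less negative than that of Fdft1 (log2, 95% interval 0.86 to 2.09, limma adjusted p = 4e-05). Over the 10 genes the differences ran from 1.42 to 1.65, and all 10 passed with groups that did not overlap. Ebp, in the sterol branch itself, also differed from Fdft1, by 1.22. The result says nothing particular about the 10 genes, since 99.6% of all features passed the same test, 99.5% as less lowered than Fdft1 and 0.0207% as more lowered. All features share the noise of Fdft1 in it, so its p-values are too small. An exact permutation test gave p = 0.1 for each of the 10, the smallest value possible. With each gene's own residual spread in place of the moderated one, the lower limits of the 10 differences lay between 0.49 and 1.33. Against Fdps the differences ran from 1.94 to 2.18, with 99.8% of all features passing.

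A further 30 genes of the non-sterol branches cover processing of prenylated proteins, dolichol use, ubiquinone synthesis, and prenylation of heme, vitamin K and transfer RNA. In limma 0 of 30 passed, 1 had an unadjusted p below 0.05, and the median log2 fold change was 0.08, with values from -0.11 to 0.33. Of all features 7.49% had an unadjusted p below 0.05. There were 23 positive and 7 negative values, where 56.3% of all features were negative. In 2 of the 30, Nus1 and Coq10a, all LDL arrays were higher, near the 5.84% of all features that showed it. The smallest p belonged to Nus1, the partner subunit of Dhdds, which had 0.26, 0.59 and 0.45 with saline and 0.79, 0.70 and 0.69 with LDL. Its groups did not overlap, but the log2 fold change of 0.29 did not pass (adjusted p = 0.636) and its dimmer probe had -0.16. Dolk, the dolichol kinase, had 0.25 (adjusted p = 0.71), and Chm, the escort protein that presents Rab GTPases to geranylgeranyl transferase II, had 0.27 (adjusted p = 0.715).

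Genes of prenylated proteins were read as the downstream end of these branches. Of 14 GTPase and lamin genes 0 passed in limma, 0 had an unadjusted p below 0.05, and the median log2 fold change was -0.06. Rhob, a small GTPase, had -0.31 (adjusted p = 0.739), but its other probe had -0.01. Hras had 0.28 (adjusted p = 0.763) and Lmnb1, a lamin of the nuclear envelope, -0.24 (adjusted p = 0.788). RNA levels do not show how much of each protein carries a prenyl group. A lower transcript level per cell and fewer transcribing cells cannot be told apart in these cultures.

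**Figure D4:**
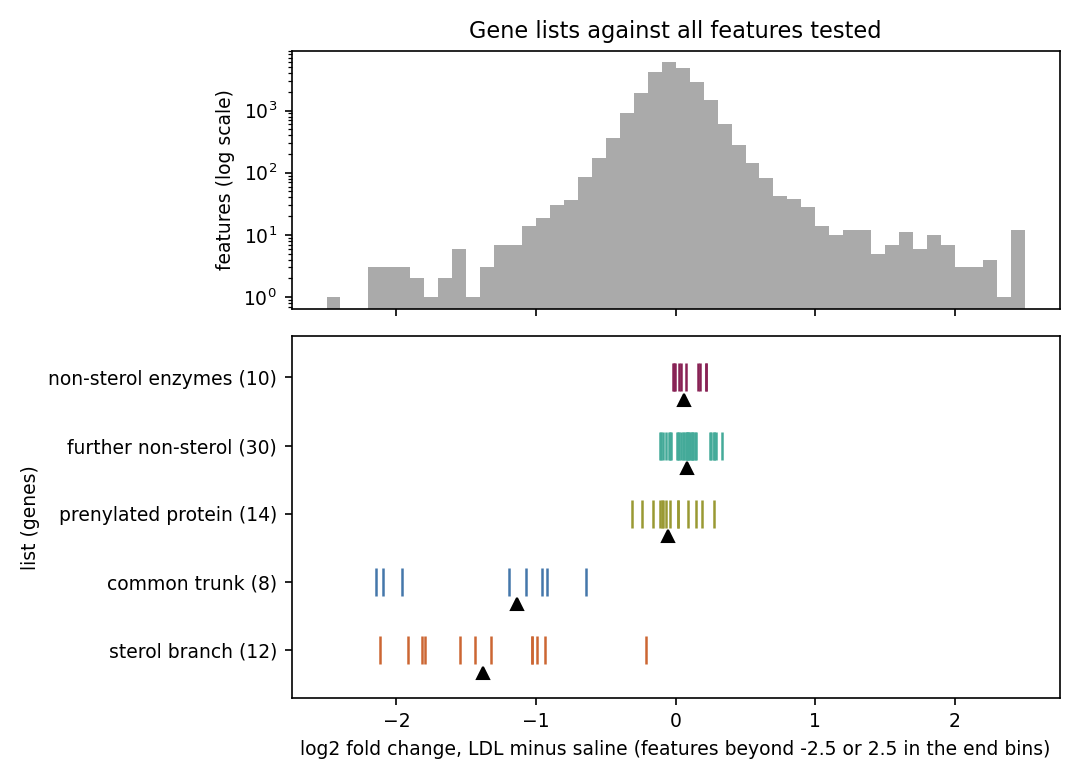
Upper panel: number of features (log scale) by log2 fold change, LDL minus saline. Lower panel: each gene of 5 lists as a tick with the list median as a triangle; the medians are 0.06, 0.08 and -0.06 for the non-sterol enzymes, further non-sterol genes and prenylated protein genes, and -1.13 and -1.38 for the trunk and the sterol branch.

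On the sterol side the genes that fell included Lss, Cyp51, Tm7sf2, Msmo1 and Sc5d, with log2 fold changes from -1.92 for Msmo1 to -1.03 for Sc5d. All 12 genes of the branch were negative, and in 11 the LDL arrays were all below the saline arrays, against 8.79% of all features. Ebp, a sterol isomerase, was the exception at -0.22 (95% interval -0.50 to 0.07), near the range of the non-sterol genes. In the trunk the genes that fell included Acat2, Hmgcs1, Mvk, Mvd, Idi1 and Fdps, and Pmvk had -0.64 (adjusted p = 0.199). The sterol branch and trunk counts of 6 and 7 were both 0 when saline replicate 3, or either of LDL replicates 2 and 3, was left out, and both 1 when saline replicate 2 was. The trunk count was 4 when saline replicate 1 was left out and 3 when LDL replicate 1 was. The count of non-sterol enzymes that passed was 0 with any array left out.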

How the data were processed

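Each sample was a 1-colour Agilent array, labelled from 100 ng of total RNA per the labels. The scanner output the authors deposited gives linear intensity for each spot, processed by Agilent Feature Extraction 10.7.3.1, per the file headers, with no normalization between arrays. R 3.4.4 and limma 3.34.9 appear in the submitters' processing notes. A second deposited table holds log2 values (alternative only; method not given in the sources used here), which correlated with the scanner values at r from 0.987 to 0.993 across spots.

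The processed signal was taken to log2 and set relative to each array's 75th percentile. Control and outlier-flagged spots were left out. A probe was tested if at least 50% of its spots were well above background on all 3 arrays of a group (32993 of 55681 probes; between 55.9% and 66.9% of probes per array). Names came from RefSeq accessions (28331 probes matched, GRCm38.p6). The brightest probe stood for a gene, and a feature needed at least 2 measured arrays per group. LDL and saline were compared with limma 3.58.1 in R 4.3.3 (two-sided, no covariates, adjusted p below 0.05), a procedure tested on simulated data. Named were the 10 genes, Fdft1, Fdps, genes of a list that passed, and the 3 smallest p of each other list; Ebp, Pmvk, Coq10a and Gfap were named after their values were seen. Some genes of the lists are counted but not reported singly here. Genes and lists were chosen with earlier results of these data known. Alternatives covered scaling, background correction, filters, probes, blocks, variances and left-out arrays. The slide row of an array was inferred from the second part of the scanner barcode in the file headers. Figures used matplotlib 3.10.9. The number of arrays limits the precision.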

Additional observations from a re-analysis of the deposited data

How the results depend on the processing

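In all 18 alternatives for the calls, 0 of the 10 non-sterol enzymes passed. The same held for the 30 further non-sterol genes and the 14 prenylated protein genes. In 19 of 19 the 10 responses differed from that of Fdft1 (or Fdps). Nearly all features pass that test (99.6% against Fdft1 and 99.8% against Fdps in the main fit), so the count says nothing particular about the 10. The smallest adjusted p of a non-sterol enzyme was 0.328, without saline replicate 2. Keeping outlier-flagged spots was added after seeing the data.

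The count of 33 features became 0 without the background filter, 13 with the replicate block, 15 when blocked by slide row, 55 with trended robust variances and 0 in slide row 1, and ran from 0 to 32 with 1 array left out. The sterol branch count of 6 became 0 without the filter, 3 with the replicate block and 0 in slide row 1, and ran from 0 to 6 with 1 array left out. The trunk count of 7 became 4 with median scaling, 0 without the filter, 3 with the replicate block, 4 when blocked by slide row and 0 in slide row 1, and ran from 0 to 4 with 1 array left out. Fits with fewer arrays have fewer degrees of freedom; for the others the cause was not tested. Where 0 features passed in limma, between 867 and 1777 had an unadjusted p below 0.05.

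The median of the 10 genes, 0.06, was 0.16 without saline replicate 2, 0.11 without LDL replicate 2, 0.03 without saline replicate 1 and 0.023 without saline replicate 3. It was 0.0957 with median scaling, 0.0954 with normexp, 0.104 with the authors' values, 0.0996 with the mean over probes and 0.0286 in slide row 1. Values near 0 changed sign: with median scaling Fntb had 0.0239, Pdss1 0.0319 and Coq2 0.0198; with quantile normalization Fntb had 0.0222 and Pdss1 0.0034; Coq2 had 0.0274 with normexp, 0.0158 with the authors' values, 0.0032 with the mean over probes and 0.0257 on its other probe; Ggps1 had -0.0038 in slide row 1. With 1 array left out, Ggps1 ran from -0.0361 to 0.14, Fnta from -0.0264 to 0.0794, Fntb from -0.21 to 0.24, Dhdds from -0.0207 to 0.22, Pdss1 from -0.0616 to 0.0688 and Coq2 from -0.11 to 0.0627.

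With the replicate block the fold changes stay as they are, and 10 features were lower and 3 higher. Deviations of same-numbered arrays correlated across features at 0.24, -0.08 and 0.21, and those of other pairs at -0.27 to 0.08. The values for numbers 1 and 3 were above those of every other pair, that for number 2 was not. These correlations do not settle whether the numbers pair the arrays. The labels do not say so, and the fit without a block was kept as the main one.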
